A study of Rattus norvegicus with 6 samples.

Results

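Natural killer (NK) cells of the rat lung were described in 3 rats given bleomycin (BLM) and in 3 control rats. NK cells were chosen by measured values: a cell was taken when it held at least 1 unique molecular identifier (UMI, the tag that lets 1 count stand for 1 mRNA molecule) of at least 3 of the 6 genes Ncr1, Gzma, Nkg7, Prf1, Klri2 and Gzmm and 0 UMIs of Cd3e, Cd3g, Cd3d, Cd79b, Mrc1 and Cdh5. This gave 1036 NK cells of 25547 cells in all, 398 in control rats and 638 in BLM rats. The animals were Sprague Dawley rats, 8 to 10 weeks of age. BLM rats received 1 dose of 5 mg/kg through a catheter in the trachea, control rats received saline by the same route, and lungs were taken on day 28. The tracheal procedure was thus shared by both groups. Single cells were made from small pieces of lung tissue and captured with BD Rhapsody, a microwell system, so a share of cells is that of the pieces taken. The labels number the samples 1 to 3 in each group, and each sample was treated here as 1 rat. A cell's library was read from its name, which ends in N or F and a number. No label spells out these letters. N was taken as control and F as BLM because the N and F cells each sum to the total known for that group from the study, and the number was taken as the replicate of the sample's title. The direction of every BLM difference rests on that reading, and the order of replicates on the number.

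NK cells are innate lymphocytes that kill infected or transformed cells without an antigen receptor made by gene rearrangement, and so without the CD3 chains that carry the T cell receptor to the surface. They store perforin, which opens pores in the membrane of a target, and granzymes, proteases that enter through these pores. A balance of activating and inhibitory surface receptors decides whether the granules are released, and NK cells also secrete chemokines and interferon-gamma. Interleukin 15 acting through the receptor chain Il2rb keeps them alive, and the transcription factor Tbx21 (T-bet) drives their maturation. In the lung they are mostly found in the blood vessels and the tissue around them.

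Libraries held 2568 to 7481 cells and 3860028 to 16598959 UMIs. NK cells had a median of 1081 UMIs, between 1023.5 and 1138 in the 6 rats, and together held 121795 to 305203 UMIs per rat. UMIs were summed over the NK cells of a rat and are given as CPM, the count scaled to a sum of 1000000, in the order of replicates 1, 2 and 3. Of all cells, 629 carried a cell number that also occurred in another library, among them 24 NK cells. Intervals of shares are exact binomial ones at 95% and cover counting error only. The labels do not state batches or pooling, so p-values measure the spread between these 6 samples, part of which may be technical.

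The genes that chose the cells were on in the NK cells of every rat, which is a property of the rule and not a result. Ncr1, the activating receptor NKp46, was at 742, 583 and 707 CPM in control rats and 786, 647 and 721 CPM in BLM rats. Perforin, Prf1, was at 4816, 5049 and 4664 CPM in control rats and 5295, 4402 and 4247 CPM in BLM rats. Granzyme A, Gzma, was at 6267, 4852 and 6407 CPM and 8162, 7017 and 6138 CPM. The groups overlapped for all of these. Granzyme M, Gzmm, lay at 2019 to 2379.9 CPM, the granule protein Nkg7 at 2366 to 2954 CPM and the lectin-like receptor Klri2 at 442 to 719.9 CPM over the 6 rats. In T cells, taken as cells with at least 2 of the 3 Cd3 genes and fewer than 3 of the NK genes, Gzma lay at 0 to 41.7 CPM and Ncr1 at 0 to 6.96 CPM. When each of the 6 genes was measured in cells chosen by the other 5, so that the choice did not use it, BLM and control rats differed by 0.18 (Ncr1), 0.32 (Gzma), 0.01 (Nkg7), -0.03 (Prf1), -0.26 (Klri2) and -0.02 (Gzmm) on the log2 scale. The adjusted p of these differences lay between 0.685 and 0.995 by edgeR.

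**Figure D1:**
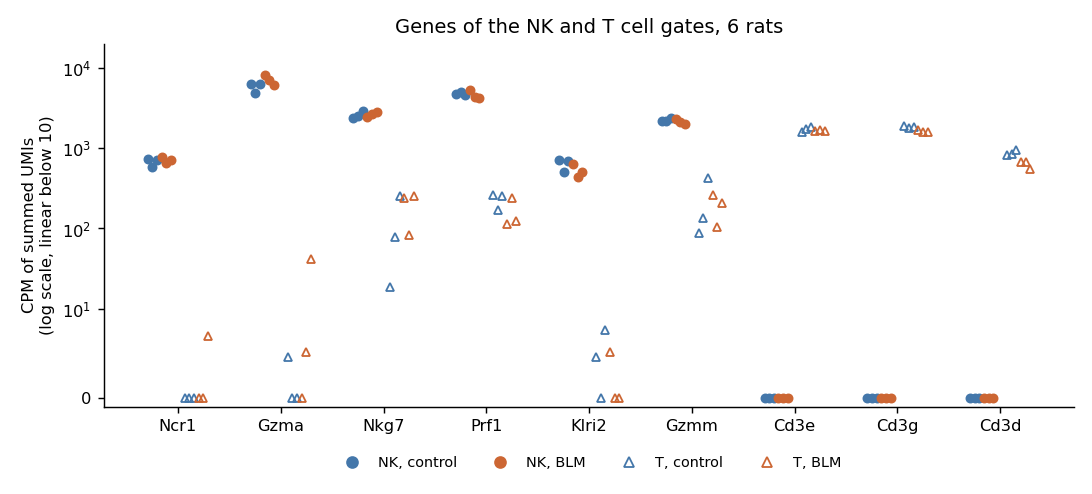
Level of the 6 NK genes and the 3 Cd3 genes that chose the cells, as CPM of summed UMIs on a log axis that is linear below 10. Filled circles are NK cells and open triangles T cells, 1 point per rat, blue for control and orange for BLM. NK cells of all 6 rats lie close together for each NK gene and at 0 for the Cd3 genes, since the rule chose them so.

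The windows of 250 bases before the start of 5 of these 6 genes are printed because the letters TGTGGT, or ACCACA on the other strand, which belong to the core that Runx factors bind, occurred in each of them. Ncr1 had no window in the table used. The sequences are those of RefSeq for build GRCr8, read 5′ to 3′ on the strand of the gene, with the match in capitals. They lie at chr2:46485697-46485946 (Gzma, minus strand), chr7:10667257-10667506 (Gzmm, minus strand), chr4:164947505-164947754 (Klri2, minus strand), chr1:102981247-102981496 (Nkg7, plus strand) and chr20:29788790-29789039 (Prf1, plus strand).
Gzma: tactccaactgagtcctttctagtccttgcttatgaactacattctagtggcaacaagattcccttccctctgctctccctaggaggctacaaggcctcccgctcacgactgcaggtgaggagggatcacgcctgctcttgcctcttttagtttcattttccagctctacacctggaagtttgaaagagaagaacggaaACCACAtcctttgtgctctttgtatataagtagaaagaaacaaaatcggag
Gzmm: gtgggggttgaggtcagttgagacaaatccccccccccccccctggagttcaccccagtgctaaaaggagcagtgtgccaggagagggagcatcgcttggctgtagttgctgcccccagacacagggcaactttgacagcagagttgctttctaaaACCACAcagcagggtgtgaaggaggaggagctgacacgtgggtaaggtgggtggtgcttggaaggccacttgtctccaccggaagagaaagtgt
Klri2: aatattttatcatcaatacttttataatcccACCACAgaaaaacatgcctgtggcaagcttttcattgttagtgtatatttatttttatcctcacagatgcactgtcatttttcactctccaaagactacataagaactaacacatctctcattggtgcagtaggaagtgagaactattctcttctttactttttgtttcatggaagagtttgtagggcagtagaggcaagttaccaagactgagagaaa
Nkg7: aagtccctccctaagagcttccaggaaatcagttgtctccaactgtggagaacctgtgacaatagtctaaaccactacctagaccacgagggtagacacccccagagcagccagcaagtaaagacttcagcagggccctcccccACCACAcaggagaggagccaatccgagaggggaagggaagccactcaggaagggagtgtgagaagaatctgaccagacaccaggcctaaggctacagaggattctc
Prf1: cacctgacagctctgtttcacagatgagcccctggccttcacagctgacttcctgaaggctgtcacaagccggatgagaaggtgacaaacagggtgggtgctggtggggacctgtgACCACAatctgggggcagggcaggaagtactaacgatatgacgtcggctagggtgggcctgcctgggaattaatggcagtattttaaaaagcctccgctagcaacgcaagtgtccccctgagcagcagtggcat
Of all 33469 windows of this length, 14.5% held the same 6 letters on either strand. Among the genes named below for the comparison with T cells, 4 of 15 genes higher in NK cells and 4 of 14 genes higher in T cells held them. The T-box letters TCACACC were found in 1 of the 5 windows (Gzmm) against 3.22% of all windows, and the Ets letters AGGAAGT in 2 of them (Klri2 and Prf1) against 7.08%. The T-box and Runx letters can overlap by the bases ACC, and in Gzmm they lay apart. Other and longer forms of these motifs were also looked at, and the match is a description of these windows.

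Cells with fewer NK genes had fewer UMIs and less often held other genes of NK cells that the rule did not use. Of the 1036 cells, 179, 368, 358 and 131 held 3, 4, 5 and 6 of the NK genes. Just inside the threshold, with 3 genes, the median was 786 UMIs, and Ccl5 was found in 97.2% and Il2rb in 77.1% of the cells. Just outside, 128 cells with 2 genes had a median of 540 UMIs, with Ccl5 in 82.0% and Il2rb in 49.2%. Another 106 cells with at least 3 NK genes were left out for a UMI of an excluded gene, 56 for a Cd3 gene, 44 for Mrc1, 5 for Cd79b and 4 for Cdh5, some for more than 1. Messenger RNA of other cells was present in the NK cells. The summed macrophage markers lay at 686, 2783 and 1461 CPM in control rats and 298, 1254 and 425 CPM in BLM rats, with 9 of 12 markers above 0 and Mrc1, Marco and C1qb at 0. The summed B cell and plasma cell markers lay at 0 to 24.6 CPM, with Cd79b, Pax5, Jchain and Mzb1 among those at 0. The airway epithelial markers, all 5 above 0, summed to 61.4, 1617 and 37.2 CPM in control rats and 242, 157 and 2723 CPM in BLM rats, and those of erythroid cells and platelets, all 6 above 0, to 5.58, 49.3 and 15.9 CPM in control rats and 78.6, 4351 and 34.9 CPM in BLM rats. The sums for stromal and alveolar type 2 cells, the latter reaching 6963 CPM in control replicate 2, stand beside the results they touch.

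No difference in the share of NK cells between the groups was detectable with 3 rats each. NK cells were 4.21%, 3.74% and 3.48% of the cells of control rats and 6.84%, 3.29% and 3.67% of those of BLM rats. BLM replicate 1 stood above all other rats, with an interval of 6.04% to 7.70%, and the other BLM rats lay within or below the control range. The mean share was 3.81% ± 0.371 (SD, n = 3) in control and 4.60% ± 1.95 (SD, n = 3) in BLM rats, a difference of 0.788 percentage points (two-sided exact permutation test, p = 0.9, where 3 against 3 rats cannot go below 0.1). Without BLM replicate 1 the difference turned to -0.331 percentage points. The 1074 T cells were 3.77% ± 1.23 and 4.37% ± 1.16 of the cells (exact p = 0.7), and the 853 B cells 2.73% to 5.25% and 1.68% to 4.84% (exact p = 0.6). Of the NK, T, B and Cd3-positive cytotoxic cells together, NK cells were 28.4%, 37.6% and 34.7% in control and 40.4%, 29.0% and 42.4% in BLM rats (exact p = 0.5).

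**Figure D2:**
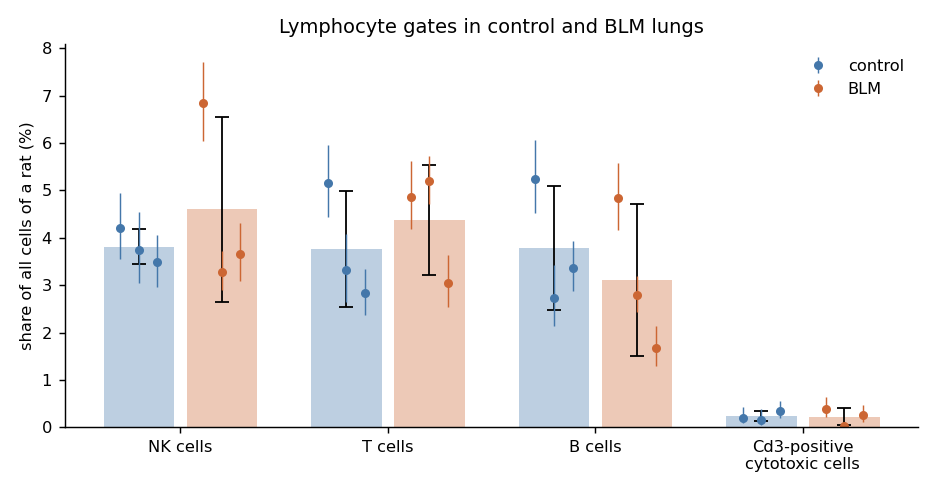
Share of a rat's cells, in percent, made up by NK, T, B and Cd3-positive cytotoxic cells in control (blue) and BLM (orange) rats. Points are rats with exact 95% binomial intervals, bars are means of 3 rats and black lines the SD. The 6.84% of BLM replicate 1 sets the higher BLM mean of NK cells.

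The program of NK cells was set against that of the T cells of the same rats, since both are lymphocytes and share killing genes. Cd3-positive cells with at least 3 of the 6 NK genes were kept out of the T cells by rule and are described below. Granule and chemokine genes that go with these 6 can therefore be low in T cells in part by the choice. A filter on low counts set which genes were tested. A gene could pass it through its level in NK cells alone or in T cells alone. Counts of list members below therefore describe the genes tested. Of 3571 genes tested, 605 (16.9%) were higher and 542 (15.2%) lower in NK cells than in T cells at an adjusted p under 0.05 by edgeR, with the rat as a block and the 12 genes of the rules left out. The 20 named genes higher in NK cells included the granzyme genes Gzmbl1, Gzmbl2, Gzmbl3 and Gzmk, the receptors Klri1 and Klrg1, the integrin Itgam, the Src-family kinase Fgr, the growth factor Pdgfb, the fatty acid transporter Slc27a2, the metalloprotease Adamts14 and the protease inhibitor Spint1. The 20 named genes lower in NK cells included the homing receptors Ccr7 and S1pr1, the interleukin 7 receptor Il7r, the costimulatory ligand Cd40lg, the receptor Slamf6, the coreceptor chain Cd8b, the transcription factor Lef1 and the T cell receptor adaptors Trat1 and Sit1. Of 6 T cell markers analysed here, Cd6, Cd28 and Bcl11b summed to 49.1 to 89.3 CPM in NK cells, with the 3 Cd3 genes at 0.

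Granule genes stood high in NK cells beyond those that chose them, beside T cells that the rule held to fewer than 3 of the 6 NK genes. Of 14 genes of the granule and death ligand list tested, 9 were higher and 2 lower, with a median log2 fold change of 0.91 beside -0.02 for all genes tested. Gzmbl2, a granzyme B-like protease, was at 2232, 2660.2 and 3049 CPM and 3761, 3287 and 2798 CPM in the NK cells of control and BLM rats and at 11.3 to 97.4 CPM in T cells, a log2 fold change of 6.39 (SE 0.22) with an adjusted p of 3.3e-13. Gzmk, granzyme K, was at 3153, 3104 and 3819 CPM and 4623, 4457 and 3578 CPM in NK cells and at 13.8 to 216 CPM in T cells (log2 5.16, SE 0.28, adjusted p = 6.4e-11). NK and T cells did not overlap in any rat for these 2 genes. Gzmbl1, Gzmbl2 and Gzmbl3 are close copies, so how reads were shared among them is uncertain. The protease inhibitor Cst7 (log2 2.66) and cathepsin D, Ctsd (log2 1.21), were higher as well. Ctsw, a cathepsin of killer lymphocytes, went the other way, at 146 ± 96.8 CPM in NK and 269 ± 70.6 CPM in T cells (SD, n = 6; log2 -0.99, adjusted p = 0.00163).

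Receptors that decide on killing and the adaptors behind them formed the next group. Of 14 NK receptor genes tested, 10 were higher and 2 lower, with a median of 2.46. Klrb1a, a lectin-like receptor of the family of CD161, was at 1752, 1289 and 1509 CPM and 1130.4, 1360.2 and 1193 CPM in NK cells and 20.9 to 77.5 CPM in T cells (log2 4.89, SE 0.19, adjusted p = 1.18e-12). Klrd1 (CD94), which pairs with NKG2 chains, was higher by 2.90 and Cd244 (2B4) by 3.76 on the log2 scale. Klrk1 (NKG2D), an activating receptor that killer T cells also carry, was higher by 0.74. Slamf6, a receptor of the SLAM family, was listed at 0 to 3.66 CPM in NK cells and at 160.0 to 381 CPM in T cells. Klri1 and Klri2, and the Ly49 and Klrb1 genes among themselves, are similar in sequence and can share reads.

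Of 15 genes of signalling adaptors and Fc receptors, 10 were higher and 2 lower in NK cells, with a median of 1.26. Fcer1g, the gamma chain that couples Fc and activating receptors to kinases, was at 2099.7 ± 254 CPM in NK and 96.4 ± 24.6 CPM in T cells (SD, n = 6), a log2 fold change of 4.55 (SE 0.13) with an adjusted p of 4.52e-14. Tyrobp (DAP12), an adaptor of like function, was higher by 4.24, the kinase Syk by 3.97 and the phospholipase Plcg2 by 4.24. The 2 that were lower are parts of T cell receptor signalling: Lat at -1.38 and Cd247, the zeta chain, at -0.36 on the log2 scale. The kinase Lck did not pass the test (log2 -0.19, adjusted p = 0.266).

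Of the 24 lists, secreted molecules had the highest median, 3.59 over the 4 genes tested, all of them higher in NK cells. Of this list 20 genes were analysed here, and the filter on low counts left the others untested. A gene could pass that filter through its level in NK cells alone, so the rank describes these 4 genes and not the list. The chemokine Ccl5 was at 16575, 20362 and 17419 CPM in control and 22775, 15961 and 19739 CPM in BLM rats in NK cells, and at 244, 452 and 3253 CPM and 2423, 358 and 2692 CPM in T cells (log2 4.20, SE 0.38, adjusted p = 6.24e-08). All NK values stood above all T cell values, and the T cells spread more widely among rats. Xcl1, the chemokine that attracts cross-presenting dendritic cells, was higher by 4.98 (SE 0.36), Ccl4 by 2.97 (SE 0.24) and Ccl3 by 2.48 (SE 0.22). Interferon-gamma, Ifng, was found in 4.73% of NK cells and was too low to be tested, at 27.9, 49.3 and 21.2 CPM and 81.9, 43.9 and 23.3 CPM.

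Homing genes and cytokine receptors split between the classes. Of 19 homing and adhesion genes, 9 were higher and 8 lower in NK cells, with a median of 0.15. The integrin Itgam (CD11b) was at 385, 386 and 372 CPM and 305, 329 and 384 CPM in NK cells and at 0 to 13.8 CPM in T cells (log2 6.23, SE 0.31, adjusted p = 1.97e-11). Of the sphingosine phosphate receptors that let lymphocytes leave tissues, S1pr5 was higher in NK cells (log2 3.29, SE 0.40) and S1pr1 lower (log2 -3.88, SE 0.18), with S1pr1 at 106 ± 34.9 CPM in NK and 1651 ± 623 CPM in T cells (SD, n = 6). Ccr7, the receptor for entry into lymph nodes, had 0 UMIs in all NK cells and 245 in T cells, which is at least 86.8-fold higher in T cells when 3 UMIs over the 6 rats are taken as the floor. With Ccr7 at that bound the medians of the lists that hold it stayed as they were. Among 11 cytokine receptors, Il2rb (log2 2.95, SE 0.14), Il18rap and Ifngr1 were higher. Il7r (log2 -6.08, SE 0.37), Il6r, Il2ra and Il21r were lower, and the list median was -0.27.

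Among the genes tested, factors and surface genes of the late stage of NK maturation were higher in NK cells, and factors of naive T cells were lower. Of 17 lineage transcription factors, 9 were higher and 6 lower, with a median of 0.68. Tbx21 (T-bet) was at 1077, 895 and 627 CPM and 904, 724 and 605 CPM in NK cells and 28.1 to 149.8 CPM in T cells (log2 3.35, SE 0.22, adjusted p = 7.52e-10). Runx3, Zeb2, Id2 and Prdm1 were higher by 2.18, 2.15, 1.91 and 2.00, and the T cell factors Lef1, Bcl11b and Tcf7 were lower, at -5.56, -3.39 and -3.02. Eomes was low, at 32.8 to 106 CPM in NK and 0 to 9.21 CPM in T cells, and was not tested between them. Of the 12 late-stage genes 7 were tested, and all 7 were higher in NK cells, with a median of 2.15. Itgam, Klrg1, S1pr5 and Zeb2 were among them. A gene could pass the filter on low counts through its level in NK cells alone, so the count describes these 7 genes. Klrg1, for example, was found in 0% to 2.54% of the T cells of a rat. Of the 7 early-stage genes tested, 4 were lower, Il7r, Cd27 and Tcf7 among them, and Xcl1 and the glycoprotein gene Emb were higher, with a median of -2.85. Cd27 and Itgam, which mark the early and late stages in the mouse, were found in 63 and 323 NK cells and together in 16.

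The other lists are given by their counts and medians. The list of innate lymphoid type 1 cells and tissue residence had 4 higher and 3 lower of 8, with a median of 0.47: Ahr (log2 3.12) and Rgs1 (log2 1.28) were among the higher ones, and Cd69 did not pass (log2 0.15, adjusted p = 0.272). Of the type 2 and 3 list both genes tested were lower, at a median of -0.81. Of 12 cell cycle genes 9 were higher in NK cells and the others did not pass, with a median of 0.87, and Mki67 differed by 2.07 (SE 0.20). Of 19 genes of MHC class I and antigen processing 10 were higher and 1 lower, with a median of 0.34, and of 18 interferon response genes 8 were higher and 2 lower, with a median of 0.45. Of 12 checkpoint genes 6 were higher and 3 lower (median 0.37), of 8 NF-kappaB genes 5 were higher (0.80), and of 5 immediate early genes 4 were higher (0.83), with the others of both lists not passing. Of 29 oxidative phosphorylation genes 1 was higher and 4 lower (-0.12), and of 9 glycolysis genes the glucose transporter Slc2a1 and lactate dehydrogenase, Ldha (log2 0.98, SE 0.11), were higher (-0.002). Of 5 glucocorticoid response genes 2 were higher and 2 lower (0.41), and of 3 TGF-beta response genes Cd9 was higher (-0.24). Of 2 heat shock genes (0.12) and 4 MHC class II genes (-0.10), 0 passed by edgeR or DESeq2, and 1 and 0 passed at an unadjusted p under 0.05. Of 20 T cell genes tested 16 were lower and 2 higher, with a median of -3.31. The kinase Zap70 and Cd8a were the higher ones. Cd8a was at 854, 780.0 and 664 CPM and 685, 530.2 and 686 CPM in NK cells and 328 to 787 CPM in T cells (log2 0.64, SE 0.14, adjusted p = 0.00164). Cd8a was found in 49.2% of NK cells and 0.117% of B cells, whose median depth lay between 589 and 707 UMIs per rat beside 1023.5 to 1138 in NK cells, while its partner Cd8b was found in 0.0965% of NK cells. Rat NK cells are known to carry the CD8 alpha chain alone.

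**Figure D3:**
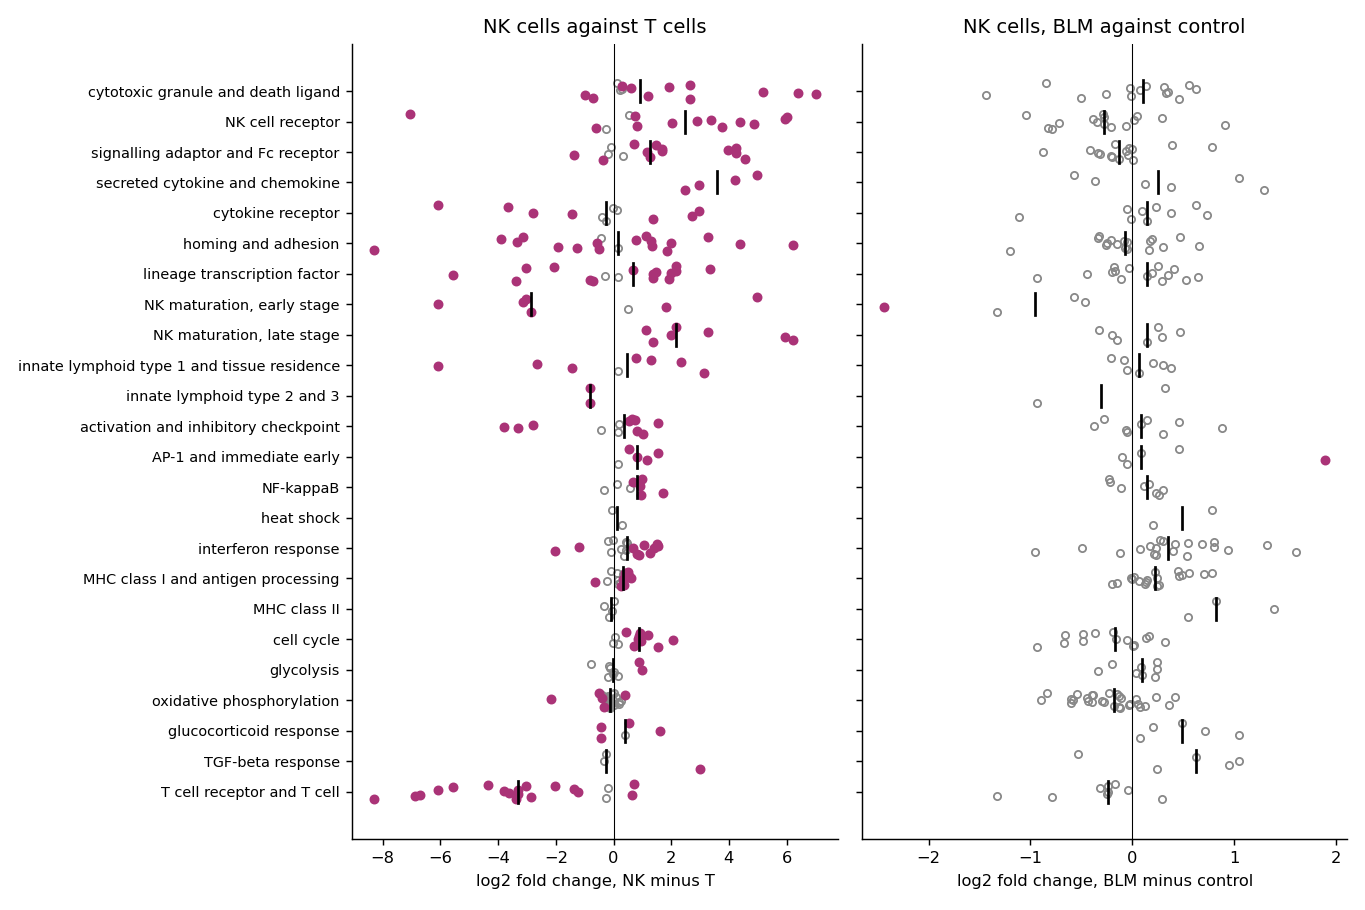
Log2 fold changes of the tested members of the 24 lists, 1 point per gene, for NK minus T cells (left) and for BLM minus control within NK cells (right). Filled points passed an adjusted p of 0.05, open points did not, and the bar marks the median of the list. Ccr7, at 0 in NK cells, is drawn at its fitted value, which is no bound. Many members stand far from 0 on the left, while on the right Dusp2 and Cd7 alone are filled.

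Within NK cells, BLM and control rats differed in few genes. Of 3575 genes tested, Dusp2 was higher in BLM rats (1 gene, 0.0280%) and Cd7, Art2b and Mcpt1l4 were lower (3 genes, 0.0839%) at an adjusted p under 0.05 by edgeR. At an unadjusted p under 0.05 there were 127 higher and 151 lower genes, and the 3 rats of one group all stood above those of the other in 477 genes (13.3%). Leaving out 1 rat gave between 0 and 16 higher and between 0 and 4 lower genes, the most without BLM replicate 1 (16 higher and 4 lower), and 0 in either direction without control replicate 3. On simulated NK sums of the 3575 genes with 200 of them changed by 1 or by 2 on the log2 scale, 44.5% and 96.5% of the changed genes were found.

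Dusp2, a nuclear phosphatase that switches off MAP kinases and is itself induced by their activity, was the gene that rose. It was at 357, 411 and 372 CPM in control rats and 1363, 1953 and 826 CPM in BLM rats. Each BLM rat stood above each control rat, and BLM replicate 2 was highest. The log2 fold change was 1.90 (SE 0.26), with an adjusted p of 0.00583 by edgeR. Without control replicate 1 or 3 the adjusted p was 0.108 or 0.0818, at a log2 fold change of 1.84 or 1.90. Dusp2 was found in 28.9%, 35.4% and 31.2% of the NK cells of control rats and in 61.6%, 69.5% and 46.5% of those of BLM rats. After each cell was thinned to 500 UMIs, which left out 39 control and 20 BLM cells, the shares were 16.3%, 16.9% and 15.6% against 45.7%, 54.8% and 25.8%. In B cells, with the lower depth given above, 9.68% to 20.3% held a UMI of it before thinning. T cells moved the same way, at 262, 124 and 257 CPM in control and 615, 521 and 529 CPM in BLM rats (log2 1.34, SE 0.23, adjusted p = 0.0177), where 12 of 3449 genes (0.348%) passed. In B cells it was at 183, 221 and 222 CPM and 458, 206 and 291 CPM (log2 0.63, SE 0.32, adjusted p = 0.577), where 3 of 2521 genes (0.119%) passed. The difference of the BLM effect between NK and T cells was 0.57 (SE 0.33) on the log2 scale, with an adjusted p of 0.83.

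Ccl3 (MIP-1 alpha), a chemokine that draws monocytes and lymphocytes, just missed the threshold. It was at 714, 919.6 and 829 CPM in control and 2638, 2165 and 1088 CPM in BLM rats in NK cells, without overlap (log2 1.29, SE 0.25, adjusted p = 0.0699 by edgeR and 0.00116 by DESeq2). After thinning to 500 UMIs, Ccl3 was found in 24.8%, 20.2% and 22.7% of the NK cells of control rats. In BLM rats these shares were 42.9%, 39.4% and 23.5%, with BLM replicate 3 inside the control range. BLM replicate 3 was also nearest to the control rats in CPM, and without it the log2 fold change was 1.59 with an adjusted p of 0.00286. In T cells it rose, from 119.7, 192 and 129 CPM to 320.3, 276 and 584 CPM (log2 1.48, SE 0.31, adjusted p = 0.0462), and in B cells it was at 199.9, 369 and 361 CPM and 647, 601 and 407 CPM (adjusted p = 0.444). The related chemokine Ccl4 differed by 0.38 (SE 0.21) in NK cells with overlapping groups (adjusted p = 0.711). Ccl5 differed by 0.13 (SE 0.16) and Xcl1 by -0.57 (SE 0.29), with adjusted p of 0.888 and 0.683.

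**Figure D4:**
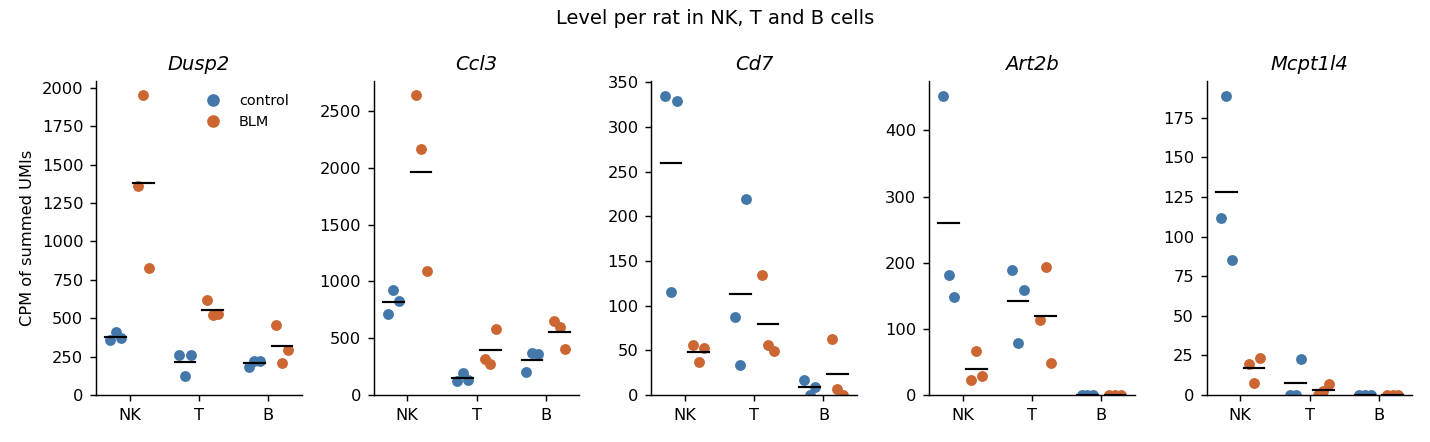
CPM per rat of Dusp2, Ccl3, Cd7, Art2b and Mcpt1l4 in NK, T and B cells, blue for control and orange for BLM, on linear axes of their own, with a line at the mean of 3 rats. Dusp2 and Ccl3 stand higher in BLM rats in NK and in T cells, and Cd7, Art2b and Mcpt1l4 stand lower in NK cells. Mcpt1l4 was found in 0% to 0.847% of the T cells of a rat and in 0% of B cells, so a fall could hardly show there. Of these 3 genes, Art2b alone was called in the test of the difference between NK and T cells.

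The 3 genes that fell were each found in few NK cells. Cd7, a surface glycoprotein of T and NK cells, was at 335, 115 and 329 CPM in control and 55.7, 36.6 and 52.4 CPM in BLM rats, with no overlap (log2 -2.44, SE 0.35, adjusted p = 0.00679). Art2b, an ADP-ribosyltransferase on the surface of rat lymphocytes (RT6), was at 452, 181 and 149 CPM and 22.9, 65.8 and 29.1 CPM (log2 -2.67, SE 0.44, adjusted p = 0.0148), and control replicate 1 was highest. Mcpt1l4, a gene of the chymase family of granule proteases, was at 112, 189 and 85.0 CPM and 19.7, 7.31 and 23.3 CPM (log2 -2.87, SE 0.47, adjusted p = 0.0148). Its relative Mcpt8l3 was at 128, 747 and 197 CPM and 59.0, 32.9 and 17.5 CPM and did not pass (adjusted p = 0.0631). In control replicate 2 a single NK cell held 15 of the 71 Mcpt1l4 UMIs and a single NK cell 82 of the 181 Mcpt8l3 UMIs counted over the 6 rats. Copies of these protease genes can share reads. The call was lost for Cd7 without control replicate 1 (adjusted p = 0.114) or 3 (0.115) or BLM replicate 2 (0.0706), and for Art2b without control replicate 1 (0.170) or 3 (0.0818) or BLM replicate 3 (0.110). Both were also lost when NK cells needed 2 of the 6 genes (0.0882 for each). With 4 of the 6 genes Cd7 did not pass the filter on low counts and had no test, while Art2b kept its call (0.0198). That of Mcpt1l4 was lost without any 1 control rat (0.114, 0.112 and 0.0818) and without BLM replicate 2 (0.0903), under the stricter exclusion of other cells (0.0521), with the replicate block (0.0586) and with 2 of the 6 genes (log2 -1.59, adjusted p = 0.317). In T cells Cd7 was at 87.5, 33.9 and 219 CPM and 134, 56.2 and 48.7 CPM (adjusted p = 0.769) and Art2b at 189, 79.2 and 159 CPM and 114, 194 and 48.7 CPM (adjusted p = 0.947). The summed mast cell and basophil markers in NK cells lay at 83.7, 378 and 53.1 CPM in control rats and 32.8, 18.3 and 40.7 CPM in BLM rats, with 5 of 8 above 0 and Cpa3, Fcer1a and Mcpt2 at 0 (their part in the levels of Mcpt1l4 and Mcpt8l3 was not tested).

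Cd7 and Art2b were often found in the same cells. A UMI of Cd7 was found in 64 and of Art2b in 58 of the 1036 NK cells, and 35 held both, so that 87 cells held at least 1 of them. These 87 cells, chosen after the values were seen and described with no test, were 23.2%, 11.5% and 11.9% of the NK cells of control rats (33, 11 and 19 cells) and 2.80%, 5.28% and 2.82% of those of BLM rats (7, 13 and 4 cells). All 3 control shares stood above the BLM shares, and the intervals of control replicates 2 and 3 (5.86% to 19.6% and 7.30% to 17.9%) overlapped that of BLM replicate 2 (2.84% to 8.87%). Fewer such cells and less mRNA of these genes per cell cannot be told apart, since the cells were found by that mRNA. Their median depth was 1073 UMIs beside 1082 for the other NK cells. Of the 28 NK cells with Mcpt1l4, 25 were among them, and of 43 with Mcpt8l3, 31. Mast cell genes differed in the 87 cells: these held 0 UMIs of Cpa3, and 1 cell held Ms4a2. The mast cell protease gene Mcpt8l2 was found in 22 of them (25.3%), at 497 CPM. In the other NK cells Mcpt8l2 was found in 0.211%, at 1.77 CPM. Whether mRNA of mast cells or basophils had a part in this was not tested.

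Of the 11 early-stage genes other than Cd7, which helped to choose the 87 cells, 8 had a higher CPM in them than in the other 949 NK cells, 1 (Klrc1) a lower one, and 2 were at 0 in both. Of the 12 late-stage genes 9 had a lower CPM in the 87 cells, 2 (Prdm1 and Spn) a higher one, and 1 (Cma1) was at 0 in both. Prf1, which helped to choose all NK cells, was among the 9. The share of all genes that were higher or lower in the 87 cells is not given here, so these counts have no background. Of the 87 cells 63 came from control and 24 from BLM rats, beside 398 and 638 of all NK cells. The 2 sets thus differ in treatment as well. The genes given with values were chosen after these were seen. Summed over rats, Xcl1 was at 2441 CPM in them and 486 CPM in the others, and the adhesion receptor Cd226 (DNAM-1) at 586 and 107 CPM. Il2ra, the high-affinity chain for interleukin 2, was at 239.6 and 6.21 CPM, Cxcr3 at 159.8 and 17.7 CPM and the cathepsin Ctsw at 612 and 80.7 CPM. Of the late-stage genes, Klrg1 was at 35.5 and 539 CPM, S1pr5 at 8.88 and 152 CPM and Zeb2 at 8.88 and 135 CPM. Gzmbl2 was at 479 and 3347 CPM, and Gzmbl3 had 0 UMIs in the 87 cells and was at 705 CPM in the others. Ncr1, which helped to choose all of them, was at 692 and 709.8 CPM. When the 87 cells were left out, an alternative added after the data were seen, Dusp2 was the single gene that passed among 3255 tested, and 205 passed at an unadjusted p under 0.05. That fit could not test Cd7 and Art2b, which had 0 UMIs in the cells kept by the way these were chosen. Mcpt1l4 had 5 UMIs left in them.

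**Figure D5:**
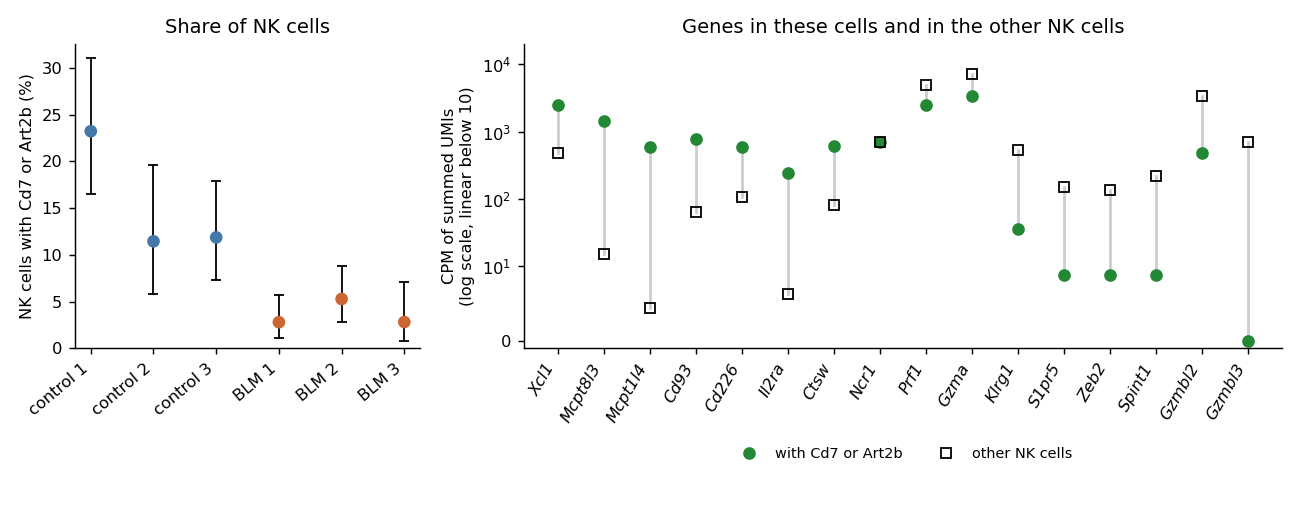
Left, share of NK cells with a UMI of Cd7 or Art2b per rat, in percent, with exact 95% binomial intervals (blue control, orange BLM). Right, CPM of summed UMIs in these 87 cells (filled green circles) and in the other 949 NK cells (open squares), on a log axis that is linear below 10. Xcl1 to Ctsw lie higher in the 87 cells, and Klrg1 to Gzmbl3 lie lower.

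Over the 24 lists for NK biology, 220 genes were tested under BLM, of which 2 passed (0.909%), Dusp2 and Cd7, beside 4 of all 3575 genes (0.112%). At an unadjusted p under 0.05, 46 list genes (20.9%) and 278 of all genes (7.78%) passed. The lists were chosen with earlier results of these data known, so these shares are a description. For lists with at least 5 tested genes the medians lay between -0.28 and 0.63 on the log2 scale, beside -0.003 for all genes tested. Of the granule list, 0 of 14 genes passed by edgeR and 0 by DESeq2 (2 higher and 2 lower unadjusted), with a median of 0.10. Gzmk was at 3153, 3104 and 3819 CPM in control and 4623, 4457 and 3578 CPM in BLM rats (log2 0.35, SE 0.16, adjusted p = 0.597), and Ctsw at 151, 164 and 308 CPM and 65.5, 29.3 and 157 CPM (log2 -1.43, SE 0.43, adjusted p = 0.294). In both genes the groups overlapped.

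Of the NK receptor list, 0 of 15 genes passed by either tool (1 higher and 5 lower unadjusted), with a median of -0.28. Klrb1c, the rat NKR-P1 receptor of the NK1.1 family, was at 313, 279 and 218 CPM in control and 164, 139 and 180.3 CPM in BLM rats, without overlap (log2 -0.72, SE 0.23, adjusted p = 0.345). Cd226 was at 273, 164 and 175 CPM and 105, 113 and 128 CPM, also without overlap (log2 -0.82, SE 0.25, adjusted p = 0.311). Klrg1 and Klrd1 overlapped between the groups, at log2 fold changes of 0.29 (SE 0.18) and 0.02 (SE 0.16). Of the 15 adaptor genes 0 passed by either tool (0 higher and 1 lower unadjusted, median -0.13). The one was Sh2d1a (SAP), the adaptor of SLAM receptors, at 251, 222 and 191 CPM and 174, 91.4 and 75.6 CPM without overlap (log2 -0.88, SE 0.29, adjusted p = 0.4).

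Of the 6 secreted molecules 0 passed by edgeR and 1, Ccl3, by DESeq2 (2 higher and 0 lower unadjusted, median 0.25). The other was Tgfb1, which encodes the profibrotic cytokine TGF-beta 1, at 33.5, 8.21 and 47.8 CPM in control and 62.3, 76.8 and 58.2 CPM in BLM rats. It did not overlap between the groups, was found in 5.60% of NK cells and did not pass (log2 1.05, SE 0.44, adjusted p = 0.563). Of 9 cytokine receptors 0 passed by either tool (1 higher and 1 lower unadjusted, median 0.14). The interleukin 18 receptor chains went opposite ways in value: Il18r1 was at 148 to 301 CPM in control and 64.0 to 132 CPM in BLM rats (log2 -1.11, SE 0.29, adjusted p = 0.234) and Il18rap at 128, 107 and 181 CPM and 183, 278 and 233 CPM (log2 0.73, SE 0.26, adjusted p = 0.458). Neither overlapped between the groups and neither passed. Il2rb, the interleukin 15 receptor chain, differed by 0.10 (SE 0.15).

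Of the 4 early-stage maturation genes tested all had negative values, with a median of -0.95, and 1, Cd7, passed (2 lower unadjusted). Cd27 was at 78.1, 24.6 and 212 CPM in control and 59.0, 32.9 and 34.9 CPM in BLM rats, with overlap through control replicate 2 (log2 -1.33, SE 0.52, adjusted p = 0.532). Of the 7 late-stage genes 0 passed by either tool and 0 at an unadjusted p under 0.05, with a median of 0.14. S1pr5 was at 128, 107 and 106 CPM and 161, 143 and 163 CPM without overlap (log2 0.47, SE 0.24, adjusted p = 0.683). Of 15 lineage transcription factors 0 passed by either tool (1 higher and 2 lower unadjusted, median 0.14). Id2, an inhibitor of E proteins that innate lymphocytes need, was at 625, 846 and 515 CPM and 1304, 1017 and 686 CPM (log2 0.64, SE 0.24, adjusted p = 0.492). Gata3 was at 179, 107 and 165 CPM and 88.5, 73.1 and 69.8 CPM, without overlap (log2 -0.94, SE 0.27, adjusted p = 0.286). Of 17 homing genes 0 passed by either tool (0 higher and 1 lower unadjusted, median -0.07).

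Of 20 interferon response genes 17 had positive values, with a median of 0.35, and 0 passed by either tool (5 higher and 2 lower unadjusted). Isg15 was at 83.7, 156 and 165 CPM in control and 541, 161 and 268 CPM in BLM rats, and BLM replicate 2 lay within the control range (log2 1.32, SE 0.39, adjusted p = 0.294). Mx1 was at 251, 353 and 282 CPM and 541, 303 and 547 CPM with the same rat inside the control range (log2 0.68, SE 0.24, adjusted p = 0.475). Of 19 genes of MHC class I and antigen processing 0 passed by either tool (4 higher and 0 lower unadjusted, median 0.22), and B2m differed by 0.24 (SE 0.16). Of 3 MHC class II genes 0 passed by either tool and 0 unadjusted (median 0.82). Cd74, the invariant chain, was at 78.1, 139.6 and 297 CPM and 49.1, 538 and 163 CPM, highest in BLM replicate 2.

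The lists of TGF-beta and glucocorticoid response, which also hold receptors of these pathways, had positive medians without calls. Of 5 TGF-beta response genes 4 had positive values and 1 a negative one, and 0 passed by either tool (2 higher and 0 lower unadjusted, median 0.63). Smad7, the inhibitory Smad, was at 145, 229.9 and 149 CPM in control and 364, 344 and 250.2 CPM in BLM rats, without overlap (log2 0.95, SE 0.24, adjusted p = 0.215). Of 5 glucocorticoid response genes 0 passed by either tool (3 higher and 0 lower unadjusted, median 0.49). Sgk1, a kinase, was at 285, 312 and 367 CPM and 521, 505 and 535 CPM, and Fkbp5, a chaperone of the glucocorticoid receptor, at 106, 57.5 and 159 CPM and 219.5, 230.4 and 239 CPM. Neither overlapped between the groups, with adjusted p of 0.215 and 0.234. Of the 28 immediate early genes 7 were analysed here and 5 tested, of which Dusp2 passed (2 higher and 0 lower unadjusted, median 0.08). The chaperone Hspd1, 1 of 2 heat shock genes tested (median 0.49, 0 passed by either tool and 1 unadjusted), was at 748, 567 and 552 CPM and 1268, 867 and 1006 CPM (log2 0.78, SE 0.19, adjusted p = 0.185).

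The remaining lists held 0 calls by either tool. Of 14 cell cycle genes 2, Hmgb2 and Tuba1b, were lower at an unadjusted p under 0.05, with a median of -0.17. Of 29 oxidative phosphorylation genes 5 were lower unadjusted, among them the subunits Cox7c (log2 -0.43, SE 0.18) and Ndufa13 (log2 -0.90, SE 0.35), with a median of -0.18. Of 8 glycolysis genes, 8 NF-kappaB genes and 7 genes of innate lymphoid type 1 cells and tissue residence, 0 passed unadjusted, with medians of 0.09, 0.14 and 0.07. Of 9 checkpoint genes 1 was higher unadjusted (median 0.08), of 2 genes of type 2 and 3 innate lymphoid cells Gata3 was lower (median -0.31), and of 9 T cell genes 2 were lower (median -0.24).

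The BLM effect in NK cells was set against that in T cells of the same rats. Of 4456 genes tested by edgeR in 1 fit, 1 (0.0224%), Slfn5, had a higher effect in NK than in T cells and 6 (0.135%) a lower one: Art2b, Cd93, Col1a1, Col3a1, Defb4 and Sftpc. Slfn5, a member of the interferon-induced Schlafen family, was at 748, 1084 and 1116 CPM in control and 1373, 1057 and 1396 CPM in BLM rats in NK cells, and at 1450.0, 1990.5 and 1694 CPM and 1276, 1109 and 1050.3 CPM in T cells. The difference between the effects was 0.96 (SE 0.18) on the log2 scale, with an adjusted p of 0.0302. In NK cells alone its groups overlapped. For Art2b, with the values above, the difference was -2.46 (SE 0.45), with an adjusted p of 0.0198. Cd93, a C-type lectin-like receptor, was at 285, 205 and 101 CPM and 55.7, 117 and 98.9 CPM in NK cells and at 0, 11.3 and 7.56 CPM and 72.3, 56.2 and 97.4 CPM in T cells, a difference of -4.95 (SE 0.77) with an adjusted p of 0.004. In the 87 cells with Cd7 or Art2b it was at 781 CPM and in the other NK cells at 64.8 CPM. The call for Cd93 was lost without control replicate 1 (adjusted p = 0.139), that for Art2b without control replicate 1 (0.257) or 2 (0.135) or BLM replicate 1 (0.151), by DESeq2 (0.752) and with T cells that needed 1 Cd3 gene (0.139), and that for Slfn5 without control replicate 1 (0.257) or 2 (0.201) or BLM replicate 1 (0.147) or 3 (0.148). The call for Slfn5 was also lost by DESeq2 (0.9996), with T cells that needed 1 Cd3 gene (0.269), with 4 of the 6 NK genes (0.0529) and under the stricter exclusion (0.0536).

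The other 4 genes are markers of stromal or epithelial cells, and the sums of such markers are given beside them. The groups of Sftpc overlapped in the NK minus T differences per rat, and it is named to complete the count. The stromal markers summed to 11.2 to 649 CPM in the NK cells of control rats, with control replicate 2 highest, and to 753 and 867 CPM in BLM replicates 2 and 3. In T cells they summed to 13.8 to 33.9 CPM in control rats and to 109, 2258 and 2101 CPM in BLM rats, with 6 of 8 above 0 in NK cells and Col1a2 and Pdgfrb at 0. The markers of alveolar type 2 cells, all 8 above 0, summed to 558, 6963 and 159 CPM in control rats and 118, 259.6 and 1204 CPM in BLM rats in NK cells and to 566, 429.8 and 197 CPM in control rats and 46.5, 3826 and 4751 CPM in BLM rats in T cells. Control replicate 2 was high in NK cells alone and BLM replicates 2 and 3 were high in T cells. The collagen genes Col1a1 and Col3a1 differed by -4.64 (SE 0.69) and -4.46 (SE 0.56), the surfactant gene Sftpc by -6.18 (SE 1.02) and the defensin Defb4 by -7.04. Without control replicate 2 the differences were -2.46, -3.56, -4.33 and -6.11 in that order, and the adjusted p were 0.772, 0.201, 0.0683 and 0.141. With T cells that needed 1 Cd3 gene they were -1.14, -0.29, -3.76 and -4.69, with adjusted p of 0.891, 0.976, 0.718 and 0.394. The call for Col3a1 was also lost under the stricter exclusion (-4.31, adjusted p = 0.399) and that for Sftpc by DESeq2 (-4.63, adjusted p = 0.9996). The part of this mRNA in the 4 differences was not tested.

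Cells with NK genes and a Cd3 gene were kept apart from NK cells. There were 54 of them, 27 in each group, 0.237% ± 0.0994 of the cells in control and 0.227% ± 0.173 in BLM rats (SD, n = 3; exact p = 1.0). Summed over rats they held Ccl5 at 19069 CPM, Prf1 at 1165 CPM, Gzmk at 1205 CPM, Cd8a at 1085 CPM and Cd8b at 495 CPM. Fcer1g was at 402 CPM and Itgam at 40.2 CPM in them, between the NK and the T cell values given above.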

How the data were processed

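The authors deposited 1 table of UMI counts for all rats, with cells in rows and 16383 genes analysed here. Its header lacks a name for the cell names, so each gene was read 1 field to the right of its name. Letters in the cell names, N and F, were matched to control and BLM by the cell totals of the groups, since no label explains them. Per the labels, single-cell whole-transcriptome libraries were made on the BD Rhapsody system. The processing notes of the submitters name mm9, a mouse build, while the genes carry rat names. Aligner and counter were not given in the sources used here. Counts were used as deposited, with all cells kept and no cell filter beyond the rules for NK, T and B cells. No doublet caller was used, because an earlier run marked too few cells to have worked, and doublets were limited by the genes that had to be at 0. Cd79a was not analysed here, and B cells were chosen by genes such as Cd79b and Ms4a1. Values of some genes are not reported here.

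For each rat, counts were summed over the NK, T or B cells and tested with edgeR 4.0.16 (R 4.3.3) by quasi-likelihood, after filterByExpr and TMM scaling, with Benjamini-Hochberg adjustment and a threshold of 0.05. The NK genes of the rule were left out of the BLM test in NK cells. The tests of NK against T cells and of the difference of effects left out all 12 genes of the rules. BLM tests within T cells and within B cells left out no gene, and the test of each rule gene left out the other 5. Shares were compared by exact permutation over rats. DESeq2 1.42.0, other scalings, no filter on low counts, other rules and the leaving out of each rat were alternatives. Python 3.11.15 read the tables, and the tests were checked on simulated data.

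Named genes for BLM and the interaction were the 12 largest fold changes per direction that passed, with groups that did not overlap and at least 50 CPM in the higher group. For NK against T cells they were the 20 largest per direction with the same sign in all 6 rats and at least 100.0 CPM in the higher class. Rule genes and list members were named as examples. The members and lists were chosen with earlier results of these data known.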

Additional observations from a re-analysis of the deposited data

Results flagged for a closer look

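Each of the following genes was marked because its BLM effect differed between NK and T cells in the test of the difference itself by edgeR, which 7 of 4456 genes passed. The difference, NK minus T on the log2 scale, was 0.96 for Slfn5, in which NK minus T differences of all 3 BLM rats stood above those of the control rats. It was -2.46 for Art2b and -4.95 for Cd93, with the BLM rats below the control rats in both. For the collagen genes Col1a1 and Col3a1 it was -4.64 and -4.46, and for the defensin Defb4 -7.04, again without overlap. The gap for Defb4 was narrow, with BLM replicate 1 at 0 and control replicate 3 at 0.232 when 10 CPM was added to each level. For the surfactant gene Sftpc the difference was -6.18, with overlap between the groups. The calls for Col1a1, Col3a1, Defb4 and Sftpc were lost without control replicate 2 and with T cells that needed 1 Cd3 gene.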

How the results depend on the processing

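The difference in the NK share turned to -0.331 percentage points without BLM replicate 1, and leaving out each rat gave -0.331 to 1.44. The other rules, depths and the fit with the replicate block (0.788) kept its sign. For BLM against control within NK cells, the numbers of higher and lower genes ranged from 0 to 16 and from 0 to 4 when each rat was left out. Higher genes were 2 by DESeq2, 2 under the stricter rule and 80 with no filter on low counts. Lower genes were 33 with no filter, 0 when NK cells needed 2 of the 6 genes and 0 without the cells with Cd7 or Art2b, an alternative chosen after seeing the data. In that last alternative Cd7 and Art2b had 0 UMIs by the choice of cells and could not be called. With the replicate block 3 genes were higher and 4 lower, without Mcpt1l4. Same-numbered control and BLM rats correlated at 0.0961, -0.0158 and 0.0393 in their deviations from the group means, so the numbers were not taken to pair the samples. For NK against T cells, 917 genes were higher with no filter and 324 lower by DESeq2. For the difference of the BLM effect, higher genes were 0 by DESeq2, 0 under the stricter rule, 0 with 4 of 6 genes, 0 with T cells that needed 1 Cd3 gene, 5 with no filter and 0 to 1 when each rat was left out. Lower genes were 1 with T cells that needed 1 Cd3 gene, 15 with 2 of 6 genes, 40 with no filter and 1 to 20 when each rat was left out. The 640 alternative values of the 40 genes named for NK against T cells kept direction and call. For BLM against control the 4 called genes kept their call in 43 and lost it in 17 alternative values, while Ccl3 and Mcpt8l3, not called, gained one in 8 and stayed without in 23. Alternatives in which a gene had no value, such as Cd7 with 4 of 6 genes, are not in these counts. For the difference of effects the 7 called genes kept theirs in 80 and lost it in 24. The cause of these changes was not tested. NK cells held 121795 to 305203 UMIs per rat, which limits tests of genes at low counts.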

Other observations

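Some NK cells held genes of dividing cells. Mki67, a marker of cycling cells, was found in 137 of the 1036 NK cells, Top2a, the topoisomerase of replicating DNA, in 90 and both in 81. Mki67 was found in 13.4%, 12.5% and 11.2% of the NK cells of control rats and in 17.2%, 13.4% and 8.45% of those of BLM rats, and the groups overlapped. The chemokines Ccl3 and Ccl4 were found in 479 and 722 NK cells and together in 393.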
